A study of Mus musculus with 28 samples.

Results

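The 6 aged male libraries of this series, made from mouse epidermis, were divided by their level of Gh, the growth hormone gene, and not by their genotype label. A library was taken as Gh-high where its normalized Gh value was above 100 and as Gh-low where it was below, which gave 4 Gh-high and 2 Gh-low libraries among the 25 libraries with values and the 28 of the series. The Gh-high libraries were those labelled cKO 4, cKO 6, control 5 and control 6, and the Gh-low libraries were those labelled cKO 5 and control 4. Per the labels, all 6 libraries came from males with a floxed Kdm6a allele (Utx fl/Y). The 3 libraries labelled cKO were Cre-positive, with Krt14-Cre, a recombinase active in keratin-14 expressing tissue, and the 3 labelled control were Cre-negative. The word aged comes from the title of the deposited table, and an age was not given. The libraries were numbered in order of accession, and the number pairs libraries with neighbouring library names.

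Gh was 865.9 in the library labelled cKO 4, 843.1 in cKO 6, 2443 in control 5 and 559 in control 6, against 0 in cKO 5 and 0.95 in control 4. No aged male library lay between 0.95 and 559, so the threshold had no library near it. The sets were chosen by these measured Gh values, which are therefore a description only, and no gene was tested between the sets. In the other tables, too, cKO stood for Cre-positive and control for Cre-negative, per the labels. The females there were Utx fl/fl and the young males Utx fl/Y, apart from a young male control with Utx +/Y. The 19 libraries of the other tables, from young females, young males and aged females, followed their labels, with Gh of 331 to 820 in 10 libraries labelled cKO and 0 to 2.58 in 9 labelled control. In aged males the labels of cKO 5, control 5 and control 6 ran against that pattern. Whether these labels are right was not tested, and every value by label in aged males is given as labelled.

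Growth hormone is made in the pituitary and acts through its receptor Ghr, the kinase Jak2 and the transcription factors Stat5a and Stat5b. The feedback inhibitors Socs2 and Cish and the growth factor Igf1 are known targets of that signal, and Igfbp3 binds insulin-like growth factors in the extracellular space. Epidermis is built of basal keratinocytes, which carry Krt5 and Krt14, suprabasal cells, which carry Krt1 and Krt10, and a cornified layer sealed by loricrin, small proline-rich and late envelope proteins. Kdm6a, also called Utx, encodes an X-linked demethylase of histone H3 lysine 27.

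The label of the tissue fitted its markers in every aged male library. Normalized values were 221742 to 356275 for Krt5, 108113 to 250049 for Krt14 and 474488 to 799108 for Krt10, and the Y-linked Ddx3y was 1369 to 2509. The pituitary list, 9 genes other than Gh, had no member that reached 10 in as many as 2 libraries, and its summed level was 7.28 to 15.5 in the Gh-high libraries and 7.66 to 13.1 in the Gh-low libraries. The libraries held about 28.3 to 34.4 M reads. Some of them stood apart in transcripts of other tissues. The 25 hair shaft and inner root sheath genes summed to 49726 in cKO 6 and 32637 in control 6, against 2622 to 3704 in the other 4 libraries. The 15 skeletal muscle genes summed to 20865 in control 4 and to 352 to 939 in the other 5, and the 14 fibroblast genes were lowest in cKO 6 and control 6 (12326 and 10791, against 27868 to 51310).

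Kdm6a, the targeted gene (GRCm38, chromosome X from 18162575 to 18279936), did not divide by Gh. It was 584 in cKO 4, 673 in cKO 6, 1224 in control 5 and 1511 in control 6, against 1322 in cKO 5 and 1090 in control 4. The Gh-high libraries labelled cKO were therefore the 2 lowest of the 6, and both Gh-high libraries labelled control lay in the range of the Gh-low pair or above it. By label, Kdm6a averaged 860 ± 403 in cKO and 1275 ± 215 in control (SD, n = 3 each), a log2 difference of -0.65 (two-sided exact permutation p = 0.3, smallest possible 0.1). Without the library labelled cKO 5 the difference was -1.01. Among Gh-high libraries alone it averaged 629 ± 62.8 in cKO and 1367 ± 203 in control (SD, n = 2 each), a log2 difference of -1.11 (two-sided exact permutation p = 0.333, the smallest that 2 against 2 allow). The deposited values are per gene and may include reads outside the deleted part.

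**Figure D1:**
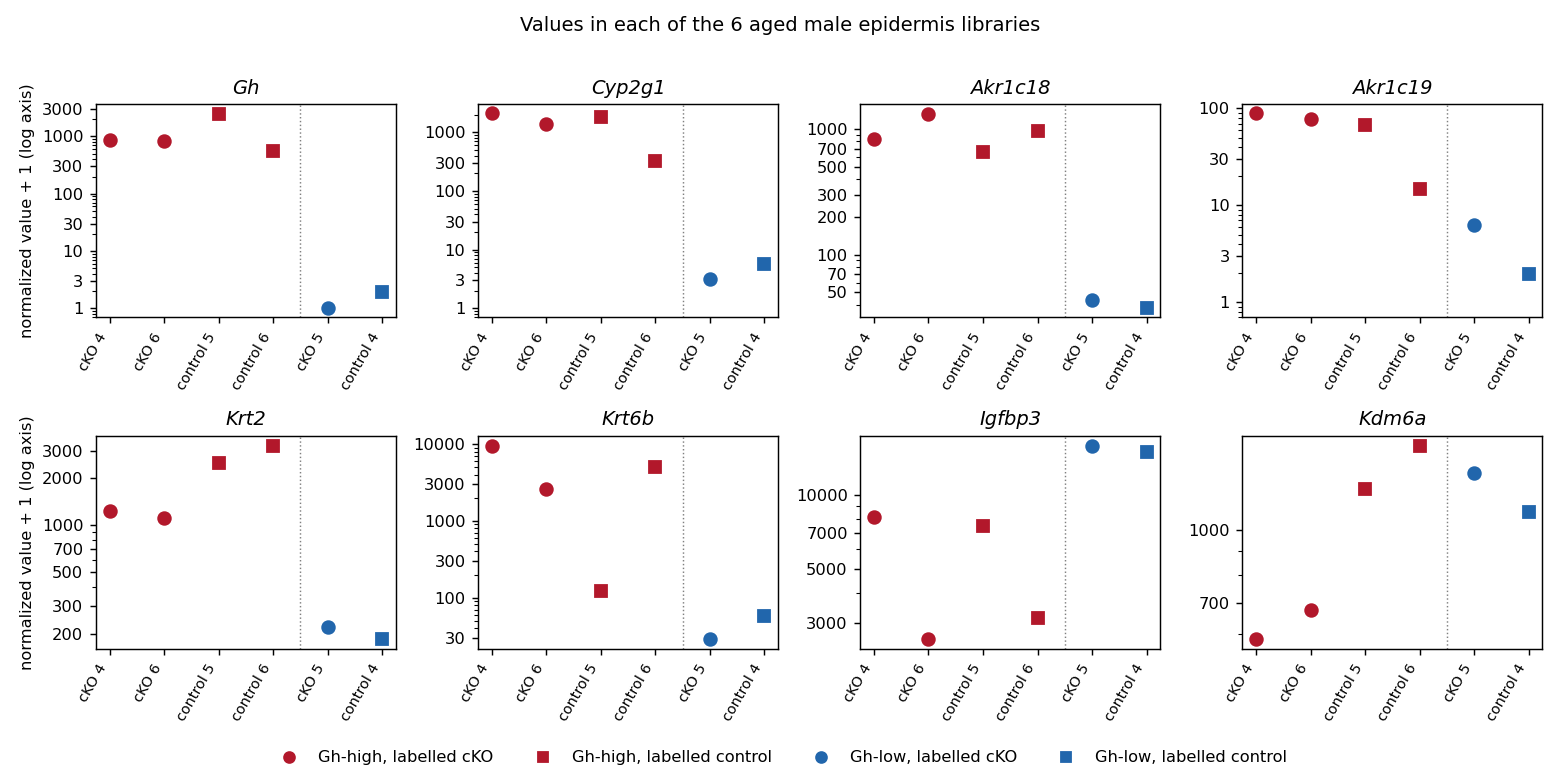
Normalized value + 1 on a log axis for 8 genes in each aged male library, Gh-high to the left of the dotted line and Gh-low to the right. Circles are libraries labelled cKO and squares those labelled control. Cyp2g1 and Akr1c18 divided with Gh, whereas Kdm6a was lowest (584 and 673) in the Gh-high libraries labelled cKO.

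After Gh, the widest gaps between the lowest Gh-high and the highest Gh-low library were those of Cyp2g1, Tmem254c, Akr1c18 and Htd2, at 5.83, 5.32, 3.93 and 3.79 on the log2(value + 1) scale. Cyp2g1, a cytochrome P450 best known from olfactory mucosa (chromosome 7 from 26808892 to 26821205), was 2145 in cKO 4, 1375 in cKO 6, 1825 in control 5 and 326 in control 6, against 2.12 in cKO 5 and 4.75 in control 4. The lowest Gh-high library was 68.7 times the highest Gh-low library. Akr1c18, the hydroxysteroid dehydrogenase that inactivates progesterone (chromosome 13 from 4132615 to 4150654), was 835 in cKO 4, 1317 in cKO 6, 663 in control 5 and 964 in control 6, against 42.5 in cKO 5 and 36.8 in control 4. It was higher by 4.50 on the log2 scale in the Gh-high set, and the lowest Gh-high library was 15.6 times the highest Gh-low library. Its neighbour Akr1c19 was 89.9, 77.5, 66.9 and 13.8 in the Gh-high libraries in the same order, against 5.22 in cKO 5 and 0.95 in control 4. Tmem254c and Htd2, chosen after their values were seen, were 38.8 to 69.7 and 12.8 to 34.4 in the Gh-high set, against 0 in both Gh-low libraries. Like Gh, Cyp2g1 and Akr1c19, they reached 10, the value needed to count as measured, only in the Gh-high set where they were high. Overlap of Tmem254c and Htd2 with other genes was not looked up, so their reads may be shared. Of 5 measured members of the Akr1c cluster Akr1c18 and Akr1c19 were the 2 set apart, both higher, as were 1.19% of all measured genes. Akr1c13 was 165.9 and 161 in the Gh-high libraries labelled cKO and 56.0 and 29.7 in those labelled control, against 34.6 in cKO 5 and 24.8 in control 4, so its sets overlapped. These genes are close relatives, and Akr1c19 overlaps Marcksl1-ps4 on the same strand, so reads may be shared among them.

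The promoter of Akr1c18 is shown because this gene combines a wide gap in aged males with a call in other tables. The sequence, from RefSeq (GRCm38.p6, minus strand, chr13:4150597-4150896), runs from 250 bases before to 50 bases after the annotated start.
Akr1c18: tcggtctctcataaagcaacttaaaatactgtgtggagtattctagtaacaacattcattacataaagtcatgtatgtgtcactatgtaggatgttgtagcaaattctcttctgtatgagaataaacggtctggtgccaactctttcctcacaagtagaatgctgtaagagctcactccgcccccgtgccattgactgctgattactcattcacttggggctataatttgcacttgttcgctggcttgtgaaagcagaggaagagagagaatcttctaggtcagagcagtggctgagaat
The Stat5-type motif TTCNNNGAA, searched on both strands, is not in this window and no capitals are shown. It occurred in 5.08% of 118 promoters of genes higher in the Gh-high set. Its share was 6.89% of 11479 promoters of measured genes and 8.47% of all 27025 promoters searched. Among other promoters looked at singly, Akr1c19 held 1 match, at -24 from the start, and Tgm7 held 1, at -142. Igfbp3, Krt2 and Kdm6a held none, and promoters of Gh, Cyp2g1 and Socs2 were not available.

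Across all genes a gene was called set apart where it reached 10 in 2 or more of the 6 libraries, the sets did not overlap and their means of log2(value + 1) differed by at least 1, a 2-fold difference. Of 14765 genes measured in this sense, 176 (1.19%) were higher in the Gh-high set and 285 (1.93%) were lower. Both counts hold genes that reached 10 only in the set where they were high. Examples are Gh among the higher genes and Nfasc and Abcc9 among the lower, and such genes were not counted apart. With quantile normalization 230 were higher and 218 lower. They rest on few libraries. Without control 4 there were 418 higher and 542 lower, without control 5 there were 376 and 429, without cKO 5 there were 365 higher, and without cKO 4 there were 268 higher. The counts were 147 and 279 without cKO 6, and 157 and 250 without control 6. With fewer libraries, sets are less likely to overlap by rule. Leaving out 1 library kept 72.2% to 97.2% of the 176 and 69.5% to 97.5% of the 285. Without both libraries numbered 6, which held the hair transcripts, 72 of the 176 and 153 of the 285 remained, and 42 and 81 other genes entered. Without the 2-fold limit, the sets did not overlap in 778 genes that were higher (5.27%) and 952 that were lower (6.45%). The median difference over all measured genes was 0.002. The libraries numbered 4 and those numbered 5 each hold 1 Gh-high and 1 Gh-low library. Within both of these pairs 80 of all 14765 measured genes were higher by at least 2-fold (0.542%) and 97 were lower (0.657%). They included 51 of the 176 and 57 of the 285, which their choice from the same libraries favours. Gh, Cyp2g1, Akr1c18, Akr1c19, Krt2, Gm1943, Wfdc18 and Socs2 were among those 51.

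The division by Gh was not the main order among the libraries. Over genes whose mean was 500 or more, the SD of the log2 ratio between 2 libraries was smallest for control 5 with cKO 5 (0.281) and for cKO 6 with control 6 (0.282), which carry neighbouring library names. The third neighbouring pair, cKO 4 with control 4, was at 0.381, behind 3 pairs without neighbouring names (0.320 to 0.373). It was 0.282 to 0.584 (median 0.465) for the 6 pairs of Gh-high libraries, 0.331 for the Gh-low pair and 0.281 to 0.606 (median 0.476) for the 8 pairs with 1 of each. Pairs from the same set were therefore in the same range as pairs from different sets.

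**Figure D2:**
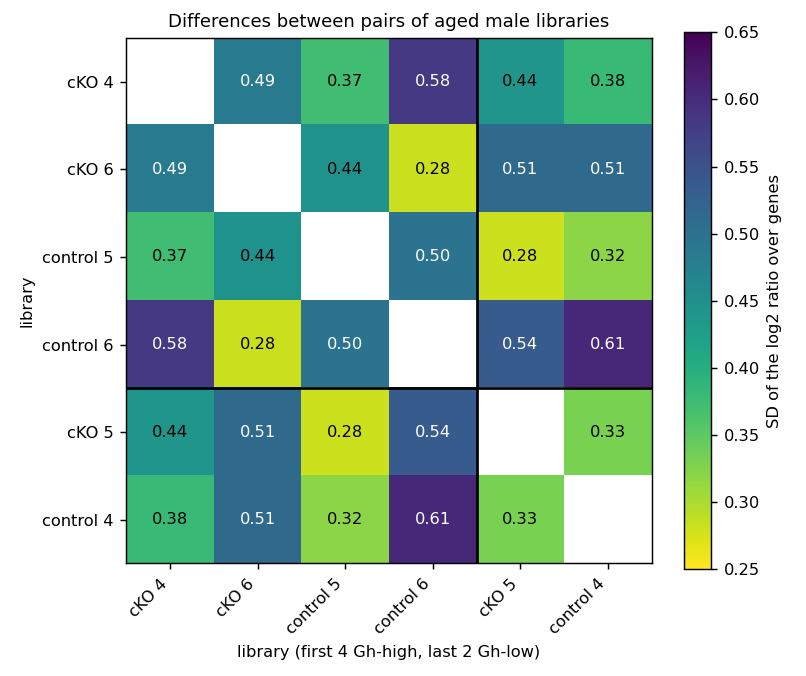
SD over genes of the log2 ratio for every pair of aged male libraries, with Gh-high libraries first and lines at the border to the Gh-low libraries. The smallest values, 0.281 and 0.282, joined libraries with neighbouring names, and the third such pair, cKO 4 with control 4, was at 0.381.

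Some cornified envelope and stress keratinocyte genes were higher in the Gh-high set, while few or none of the basal and suprabasal genes were set apart. Krt2, a keratin of late suprabasal cells that mice make chiefly in ear, tail and sole skin, was 1236 in cKO 4, 1103 in cKO 6, 2496 in control 5 and 3238 in control 6, against 221 in cKO 5 and 184 in control 4. It was 65.6 to 232 in the 19 libraries of the other tables, which were scaled separately, so the Gh-high aged males were high there and the Gh-low pair lay within that range. Gsdmc, a member of the gasdermin family, was 881 in cKO 4, 1413 in cKO 6, 864 in control 5 and 2978 in control 6, against 85.2 in cKO 5 and 227 in control 4. Among 20 suprabasal genes Krt2 was the only 1 set apart and the median difference was 0.03, and among 14 basal genes none was set apart and the median was 0.05. Of 33 measured cornified envelope genes 7 were higher and none lower (1.19% and 1.93% of all measured genes), with a median of 0.74 and 30 above 0. Their mean log2 level did not separate the sets, with 9.49 in control 5 of the Gh-high set, against 9.49 in cKO 5 of the Gh-low set. Of 8 stress keratinocyte genes 4 were higher (1.19% of all) and none lower, with a median of 2.59. S100a8 of the stress list, and Sprr2d and Lce3d of the envelope list, reached 10 only in the Gh-high set.

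The stress and envelope genes varied widely inside the Gh-high set. Krt6b, a keratin of wounded and follicular epidermis, was 9551 in cKO 4, 2614 in cKO 6, 121 in control 5 and 4959 in control 6, against 27.8 in cKO 5 and 57.0 in control 4. S100a8, a calgranulin of inflamed epidermis, was 989, 151, 19.5 and 446 in the same order of Gh-high libraries, against 5.31 in cKO 5 and 7.61 in control 4. Sprr1b, an envelope precursor, was 1435, 874, 112.7 and 2091, against 37.8 in cKO 5 and 34.7 in control 4. In all 3 genes control 5 was the lowest Gh-high library and lay close to the Gh-low pair. S100a9, the partner of S100a8, was 883, 298, 127.6 and 382, against 34.7 in cKO 5 and 68.7 in control 4. Sprr2d, Stfa1, Stfa3, BC100530, Lce3d and Tgm3 were also higher, by 1.96 to 4.20 on the log2 scale. Stfa3 and BC100530 differed by 0.06 and 0.30 within the libraries numbered 5, against 3.75 and 5.36 within those numbered 4. The Sprr, Stfa and Krt6 genes belong to families of near-identical copies, so their single values are uncertain.

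Promoters of 3 genes that were higher are shown because the hexamer TATAAA, the core of a TATA box, was frequent among them. In capitals each carries TATAAA once, 30 or 31 bases before the start. They come from RefSeq (GRCm38.p6), S100a8 from chr3:90668821-90669120 on the plus strand, Sprr1b from chr3:92438730-92439029 on the minus strand and Wfdc18 from chr11:83708754-83709053 on the plus strand.
S100a8: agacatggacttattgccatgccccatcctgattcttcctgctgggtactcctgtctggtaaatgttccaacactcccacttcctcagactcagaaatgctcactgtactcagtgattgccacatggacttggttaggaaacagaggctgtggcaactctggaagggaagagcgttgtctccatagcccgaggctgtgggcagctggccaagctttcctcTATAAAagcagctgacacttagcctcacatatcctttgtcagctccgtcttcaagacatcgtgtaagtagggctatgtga
Sprr1b: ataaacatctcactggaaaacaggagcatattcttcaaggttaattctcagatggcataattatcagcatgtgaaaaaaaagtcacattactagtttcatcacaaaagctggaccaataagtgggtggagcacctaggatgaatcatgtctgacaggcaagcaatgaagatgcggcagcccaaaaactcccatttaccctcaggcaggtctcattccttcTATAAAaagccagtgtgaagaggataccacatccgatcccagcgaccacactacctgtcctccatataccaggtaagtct
Wfdc18: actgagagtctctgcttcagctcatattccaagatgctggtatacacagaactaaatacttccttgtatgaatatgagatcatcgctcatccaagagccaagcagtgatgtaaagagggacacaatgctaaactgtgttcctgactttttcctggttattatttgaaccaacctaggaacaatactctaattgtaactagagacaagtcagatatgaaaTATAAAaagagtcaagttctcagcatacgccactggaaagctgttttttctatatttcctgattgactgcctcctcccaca
TATAAA, on either strand, occurred in 36 of 118 promoters of higher genes (30.5%) and in 11.1% of 208 promoters of lower genes. Its share was 7.89% among promoters of all measured genes and 14.2% of all 27025 promoters searched. Members of gene families were counted singly, so these promoters may not be separate observations. A match is a description of the letters and not of a bound site.

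The interferon response list holds genes that cells switch on in answer to interferon. Of 21 measured members 8 were higher (1.19% of all measured genes) and none lower, 19 were above 0, and the median difference was 1.04. Oas1a, a sensor enzyme for double-stranded RNA, was 479 in cKO 4, 294 in cKO 6, 136 in control 5 and 169.9 in control 6, against 58.5 in cKO 5 and 76.8 in control 4. Its relative Oas2 was 140.5, 128.3, 52.4 and 71.2 in the same order, against 23.3 in cKO 5 and 49.4 in control 4. In both genes the Gh-high libraries labelled cKO were highest and those labelled control lay between them and the Gh-low pair. Ifit1, which binds foreign RNA, was 26.1, 66.1, 13.1 and 30.4, against 9.3 in cKO 5 and 5.70 in control 4. It reached 10 only in the Gh-high set. The other set-apart members were Oas3, Isg15, Mx2, Rsad2 and Bst2. Mx2, a dynamin-like antiviral protein, did not follow the label, with 40.8, 67.2, 29.7 and 76.8, against 14.8 in cKO 5 and 22.8 in control 4.

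Promoters of 3 of these genes are shown because they carry, in capitals, the core of the interferon-stimulated response element, searched as GAAANNGAA on both strands with overlapping matches joined. They come from RefSeq (GRCm38.p6), Isg15 from chr4:156200769-156201068 on the minus strand, Ifit1 from chr19:34640639-34640938 on the plus strand and Oas1a from chr5:120907476-120907775 on the minus strand.
Isg15: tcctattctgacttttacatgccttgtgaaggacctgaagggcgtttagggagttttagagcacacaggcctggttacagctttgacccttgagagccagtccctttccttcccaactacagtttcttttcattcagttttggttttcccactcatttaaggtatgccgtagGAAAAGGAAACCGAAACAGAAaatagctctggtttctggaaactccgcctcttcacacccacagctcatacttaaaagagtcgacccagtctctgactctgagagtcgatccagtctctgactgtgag
Ifit1: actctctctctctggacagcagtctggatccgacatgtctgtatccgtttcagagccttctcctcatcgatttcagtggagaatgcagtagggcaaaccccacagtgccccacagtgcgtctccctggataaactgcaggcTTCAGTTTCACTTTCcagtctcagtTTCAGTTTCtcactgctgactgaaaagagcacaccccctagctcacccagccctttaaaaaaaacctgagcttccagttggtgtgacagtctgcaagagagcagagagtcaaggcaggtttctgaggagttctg
Oas1a: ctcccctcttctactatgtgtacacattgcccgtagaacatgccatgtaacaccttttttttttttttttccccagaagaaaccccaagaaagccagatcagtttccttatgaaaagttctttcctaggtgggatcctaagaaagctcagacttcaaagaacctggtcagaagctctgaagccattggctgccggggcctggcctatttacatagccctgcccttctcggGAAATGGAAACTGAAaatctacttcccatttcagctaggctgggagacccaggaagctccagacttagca
It occurred in 10 of 16 interferon list promoters (62.5%) and in 15 of 118 promoters of higher genes (12.7%). Its share was 9.62% among promoters of lower genes, 7.15% among those of all measured genes and 8.57% of all 27025 promoters searched. The 15 include the list members Isg15, Ifit1, Oas1a, Oas3, Rsad2 and Bst2, so these shares are not separate observations.

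Genes of the growth hormone pathway did not move as a group. Of 19 members, 1 was higher and 1 was lower (1.19% and 1.93% of all measured genes), and the median difference was -0.09. Socs2, which switches off growth hormone signalling, was 112.5 in cKO 4, 140.05 in cKO 6, 153 in control 5 and 94.0 in control 6, against 59.9 in cKO 5 and 26.95 in control 4. Igfbp3 was 8136, 2587, 7487 and 3147 in the same order, against 15818 in cKO 5 and 14948 in control 4, and was lower by 1.70 on the log2 scale. Within the Gh-high set both libraries numbered 6 had the lowest Igfbp3. Cish, another feedback inhibitor, was 3981, 4857, 5739 and 4273, against 3443 in cKO 5 and 2555 in control 4, a difference of 0.65 without overlap that fell short of 2-fold. The receptor Ghr was level, with 1178 to 1668 in the Gh-high set and 1405 to 1571 in the Gh-low set, and Igf1 was 19.2 to 74.1 and 51.1 to 100.03 in these sets.

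Genes that were lower in the Gh-high set included transcripts of other tissues. Of 13 measured skeletal muscle genes 7 were lower (1.93% of all measured genes), with a median of -3.12. Atp2a1, the calcium pump of fast muscle, was 19.0 to 110.8 in the Gh-high set, against 115.6 in cKO 5 and 3418 in control 4. Within the libraries numbered 5 it differed by -0.06, so its difference lay in control 4. Of 9 endothelial genes 5 were lower (1.93% of all), with a median of -1.28, and here cKO 5 stood out. Tie1, an endothelial receptor, was 11.9 to 26.5 in the Gh-high set, against 90.9 in cKO 5 and 27.7 in control 4. In tissue RNA, fewer cells of a type and less RNA per cell cannot be told apart. The part of these tissues in the other differences was not tested.

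**Figure D3:**
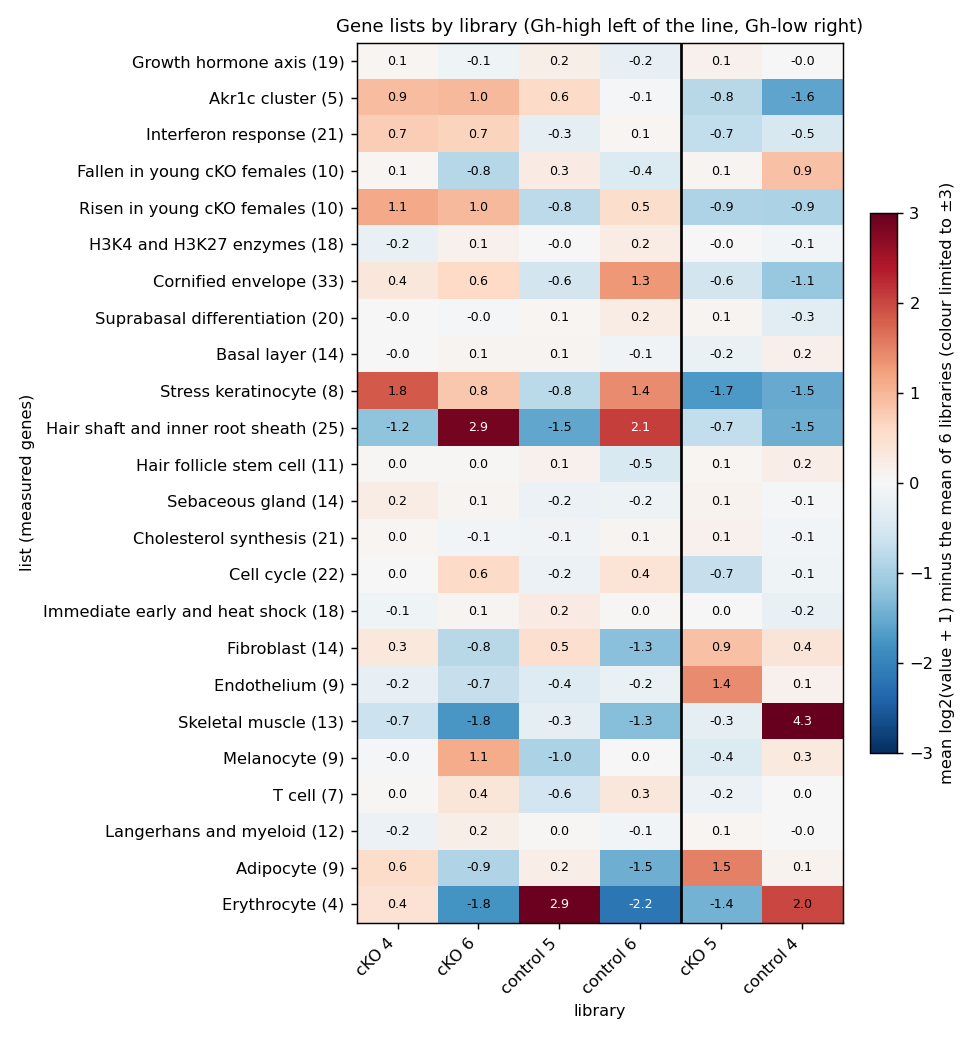
Mean log2(value + 1) of each list in each library after subtracting the mean of the 6 libraries, with the number of measured genes in brackets. Hair genes were high in both libraries numbered 6, muscle genes in control 4, and the stress and interferon lists were lowest in the Gh-low pair.

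Of 22 cell cycle genes 1 was set apart, the higher Top2a (1.19% of all measured genes were higher), the topoisomerase of dividing cells. All 22 mean differences were above 0 (median 0.71). Top2a was 619 in cKO 4, 1932 in cKO 6, 619 in control 5 and 2015 in control 6, against 460 in cKO 5 and 579 in control 4, so the libraries numbered 6, which also held the hair transcripts, were the high ones. Of 25 hair shaft genes 1, Krt86, was set apart and higher (1.19% of all), and their median was 2.11. Krt86 reached 10 only in the Gh-high set. The part of hair tissue in the cell cycle values was not tested. None of the members was set apart in the lists of H3K4 and H3K27 enzymes (median 0.09, 18 genes), sebaceous gland (-0.11, 14), cholesterol synthesis (-0.01, 21), hair follicle stem cell (-0.19, 11), immediate early and heat shock (0.11, 18), melanocyte (0.01, 9), T cell (0.01, 7), Langerhans and myeloid (-0.01, 12) or erythrocyte genes (-0.48, 4). The fibroblast (-0.80, 14 genes) and adipocyte lists (-1.23, 9 genes) each had 1 member lower (1.93% of all), and of 6 mammary genes Wfdc18 was the only 1 measured. Lists made of 10 and 12 genes known to fall or rise in young cKO females had medians of -0.72 and 1.46 over 10 measured genes each. In the first 1 was lower (1.93% of all) and in the second 4 were higher (1.19%). Of those 4, Ifit1 and S100a8 reached 10 only in the Gh-high set. All lists were chosen with these data known.

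The set-apart genes were then looked up in the 3 other tables, which share no library with aged males and in which Gh and label coincide. In young females (5 cKO, 4 control), 214 of 13898 tested genes rose (1.54%) and 333 fell (2.4%). Gh itself rose in each table and is left out of the counts of members. Of 122 genes higher in the Gh-high set and tested there, 21 rose (17.2%), 2 fell (Fam83a and Rbp2), and 96 were above 0 (78.7%, against 49.0% of all tested genes). Their median log2 change was 0.50, against -0.01 for all. Of 180 genes lower in the Gh-high set, 18 fell (10%) and 3 rose (Angpt1, Dchs1 and Lbp), but 95 were below 0, a share (52.8%) close to that of all tested genes (51.0%). Leaving out 1 library gave 13 to 18 of the higher genes, with 13 without control 3, and 9 to 18 of the lower genes, with 9 to 11 without any 1 of the 4 controls or without cKO 3 or 5.

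Named genes repeated the aged male pattern in young females to different degrees. Cyp2g1 averaged 6172 ± 1988 in cKO and 2328 ± 959 in control (SD, n = 5 and 4), a log2 change of 1.44 (SE 0.30, limma adjusted p = 0.0259), so controls there were not near 0 as the Gh-low aged males were. Akr1c18 averaged 2121 ± 387 and 1179 ± 467.5 in the same groups (0.90, SE 0.22, limma adjusted p = 0.0464). The Cyp2g1 call was lost without cKO 1, 4 or 5 or control 3 or 4 (limma adjusted p 0.0531 to 0.0734). The Akr1c18 call was lost without any 1 library other than control 1 (0.0539 to 0.133) and without the filter (0.0553). Akr1c19 averaged 199.8 ± 67.7 in cKO and 50.3 ± 37.5 in control (2.15, limma adjusted p = 0.0127). Gm1943, a predicted gene, averaged 102 ± 3.36 in cKO and 13.2 ± 6.34 in control (2.98, limma adjusted p = 6.84e-04). In aged males it had followed Gh closely, with 120, 139.6, 262 and 140.3 in cKO 4, cKO 6, control 5 and control 6, against 10.5 in cKO 5 and 18.1 in control 4. Crispld2, Gsdmc, Ifit1, Oas1a, Oas2 and Apol9b rose with it and kept the call in each of the 12 alternative settings. S100a8 also rose (2.76, limma adjusted p = 0.0465) but lost the call in 9 of the 12.

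Among the genes lower in the Gh-high set, Tgm7, a transglutaminase, was the clearest in young females. In aged males it was 310 in cKO 4, 49.3 in cKO 6, 716 in control 5 and 89.2 in control 6, against 991 in cKO 5 and 890 in control 4. In young females it averaged 52.6 ± 19.4 in cKO and 478 ± 97.3 in control (SD, n = 5 and 4), a log2 change of -3.21 (SE 0.26, limma adjusted p = 1.52e-04). Igfbp3 fell by 1.22 (SE 0.16, limma adjusted p = 0.00284), with 3246 ± 669 in cKO and 7544 ± 1293 in control. Mesp2, a somite transcription factor, Gldc, the glycine decarboxylase of mitochondria, Unc79, a subunit of the sodium leak channel, and Kel, a membrane endopeptidase, fell, with log2 changes of -2.10 to -2.41.

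In young males (3 cKO, 3 control) 2 of 13743 genes rose (0.0146%), Gh and Akr1c18. Per the labels, control 3 was Utx +/Y and the other young males were Utx fl/Y. Of 117 tested genes higher in the Gh-high set, Gh left out, Akr1c18 was the 1 that rose. Akr1c18 averaged 737 ± 133 in cKO and 129 ± 21.4 in control (SD, n = 3 each), a log2 change of 2.50 (SE 0.21, limma adjusted p = 0.0117). That call was lost without cKO 1, cKO 2 or control 3 (0.0547 to 0.104). Cyp2g1 averaged 971 ± 242 in cKO and 13.3 ± 11.5 in control (log2 change 6.72, SE 0.85). It did not pass (limma adjusted p = 0.121), although its values of 748 to 1229 did not overlap the control values of 0.83 to 23.4. Akr1c19 had 57.3 to 75.6 in cKO and 1.14 to 6.49 in control (3.87, limma adjusted p = 0.208). Of the 117 higher genes 75 were above 0 (64.1%, against 49.1% of all), and of 176 lower genes 129 were below 0 (73.3%, against 50.9%). No lower gene passed, and 0 of all 13743 tested genes fell (0%), while 320 (2.33%) had an unadjusted limma p below 0.05 in either direction.

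In aged females (2 cKO, 2 control) 25 of 14652 genes rose (0.171%) and 73 fell (0.498%). Of the higher genes tested there 5 rose (3.65%), namely Wfdc18, Gm1943, Ehf, Crispld2 and S100a9, and 2 fell (Ckb and Lce1e). Of 239 lower genes 6 fell, namely Tgm7, Unc79, Gldc, Mesp2, Igfbp3 and Ripply3, and 1 rose (Trpc2). Cyp2g1 was high in both groups, 9691 ± 1386 in cKO and 8853 ± 1240 in control (SD, n = 2 each), and so was Akr1c18, 1567 ± 21.9 and 1376 ± 485, with log2 changes of 0.13 and 0.23 (limma adjusted p = 0.772 and 0.729). Wfdc18, a secreted protease inhibitor of the WAP family, averaged 252.8 in cKO and 18.5 in control (3.73, limma adjusted p = 0.0273). In aged males it was 111.4 in cKO 4, 276 in cKO 6, 144 in control 5 and 432 in control 6, against 19.0 in cKO 5 and 26.7 in control 4. The aged cKO females were also low in Xist (14.4 and 17.1, against 18431 and 20923 in control). These values lay in the range of the aged male libraries (5.69 to 59.0), which were scaled separately. The Y-linked Uty, Kdm5d, Ddx3y and Eif2s3y were not among the named genes called in aged females. Whether the sex label of the aged cKO females is right was not tested. The part of Xist in these calls cannot be told apart from that of the genotype. Without 1 library 0 to 3 of the higher and 0 to 2 of the lower genes passed, and 0 of each without the filter.

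**Figure D4:**
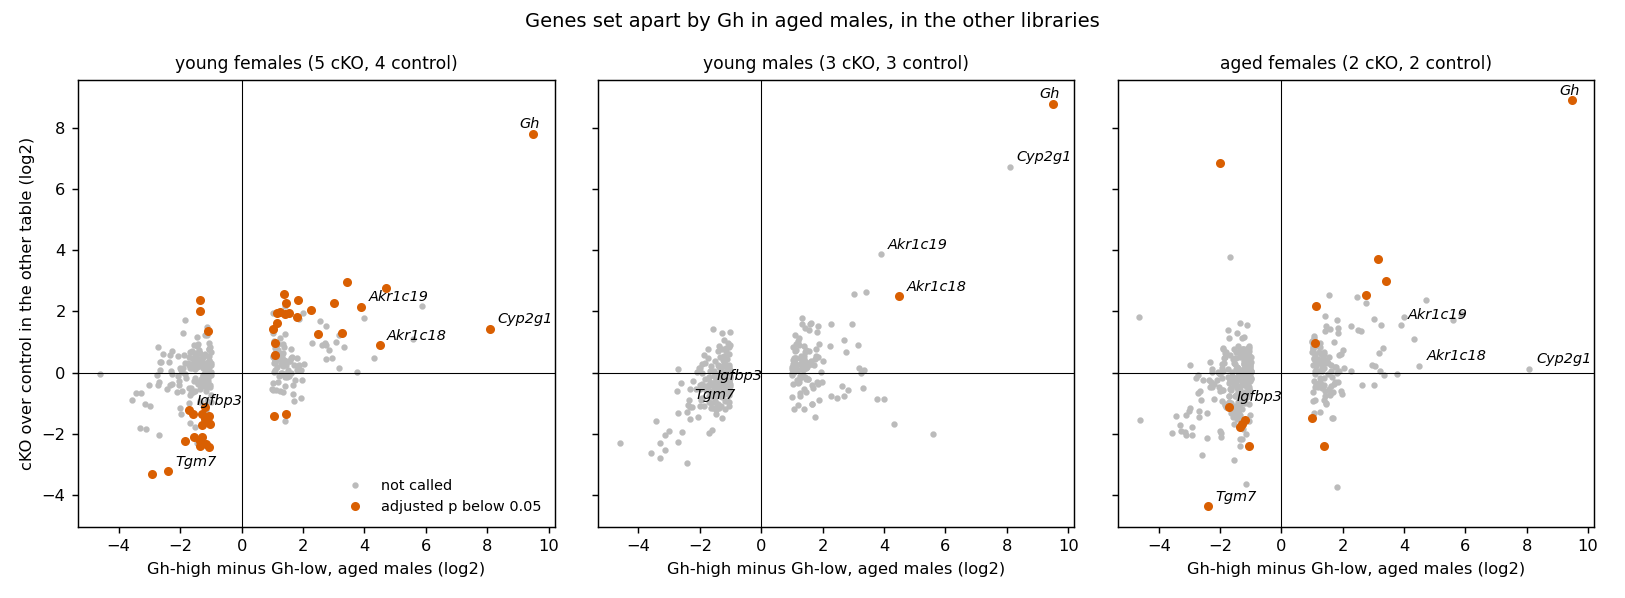
Genes set apart by Gh in aged males (x axis, Gh-high minus Gh-low, log2) against their log2 change of cKO over control in each other table (y axis), with genes past an adjusted p of 0.05 in orange. Gh lay at the upper right in all 3 tables, and Cyp2g1 was near 0 in aged females (0.13) but not in young males (6.72).

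By genotype label, 2 of 14330 tested genes passed in the 6 aged male libraries (0.014%), and 119 (0.83%) had an unadjusted limma p below 0.05. The 2 were Snurf and Snrpn, which are overlapping transcripts of 1 imprinted locus on chromosome 7. Snurf was 123 in cKO 4, 160.2 in cKO 5 and 126 in cKO 6, against 0 in all 3 libraries labelled control (log2 change 7.09, limma adjusted p = 0.00676). Snrpn was 0 in all 3 libraries labelled cKO, against 135.5 in control 4, 112.1 in control 5 and 90.7 in control 6 (-6.81, limma adjusted p = 0.00676). Their sum was 123 to 160.2 in cKO and 90.7 to 135.5 in control, so the libraries differed in which of the 2 names held the reads, and the calls are uncertain as changes of expression. Unlike Gh, these 2 genes followed the label in cKO 5, control 5 and control 6. In aged females their direction by label was the opposite, with -7.17 for Snurf and 4.35 for Snrpn. What decides which name holds the reads was not tested. Without 1 library 0 or 1 genes passed, with 1 without control 4 or control 6 and 0 without any other. The authors' deposited table, which is held here to Olfr577 in alphabetical order and so holds neither gene, called 1 gene of 12339 with an adjusted p-value. That gene was Ear3, an eosinophil ribonuclease with close relatives, at -7.82 with the authors' adjusted p of 3.0e-05. Ear3 was 0 in cKO 4, cKO 5 and cKO 6, against 52.3, 35.0 and 35.3 in control 4, 5 and 6 (limma adjusted p = 0.0774).

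Among the 4 Gh-high libraries, those labelled cKO and those labelled control shared high Gh, Cyp2g1 and Akr1c18 and differed in Kdm6a. Of 14436 genes 0 passed by label (0%), and 316 had an unadjusted limma p below 0.05 (2.19%). Without control 5 25 genes passed and without control 6 107, fits in which the lone control is assumed to vary like the 2 cKO libraries. Krt2, high in all 4, was 1236 and 1103 in cKO against 2496 and 3238 in control (log2 change -1.28, SE 0.21). Akr1c13 was 165.9 and 161 in cKO against 56.0 and 29.7 in control (1.98, SE 0.42). Ifi27l2a, an interferon-induced gene chosen after its values were seen, averaged 315 in cKO and 70.8 in control (2.15, SE 0.38). None of these passed (limma adjusted p = 1.0 each). Zfp182, Ttc14 and Skint6, also chosen after their values were seen, were lower in cKO by 1.42, 1.10 and 1.04.

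Genes called in young females, Gh apart, were followed through the 4 differences that the sets and labels allow. The 206 measured genes that had risen there had a median of 0.40 between Gh-high libraries labelled cKO and those labelled control, with 79.1% above 0, against 52.1% of all measured genes. Between Gh-high and Gh-low libraries the median was 0.39 among those labelled cKO but 0.02 among those labelled control, where 50.5% were above 0. Between the Gh-low libraries, cKO 5 and control 4, it was -0.07 with 45.1% above 0. The 333 genes that had fallen had medians of -0.15 (70.9% below 0, against 47.9% of all), -0.26 (77.8%), -0.24 (70.3%) and -0.09 (59.8%) in the same 4 differences. The risen genes were thus high in the 2 libraries with high Gh and low Kdm6a, while the fallen genes were lower in both kinds of Gh-high library than in the Gh-low library of the same label. The 4 differences reuse the same 6 libraries and were not tested.

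**Figure D5:**
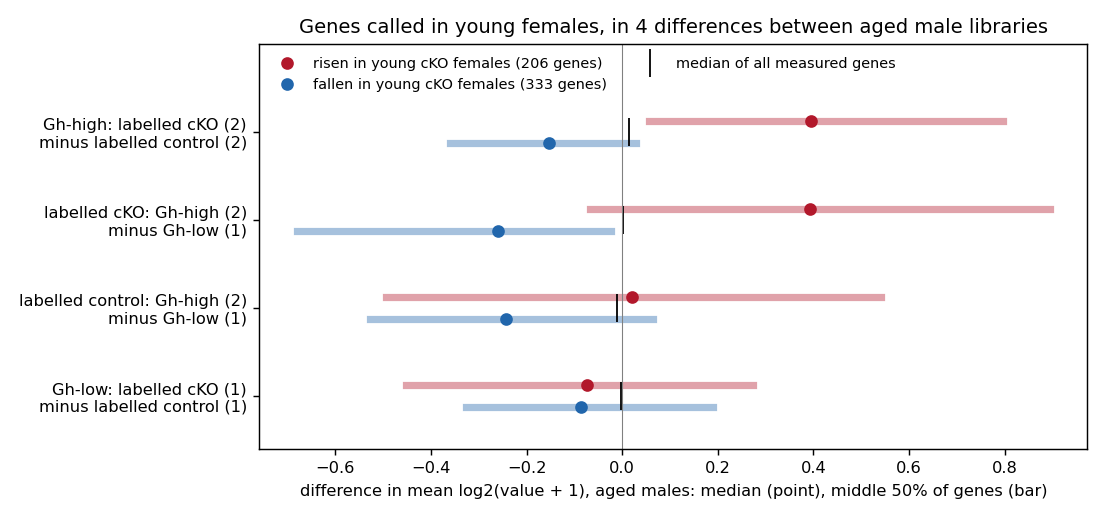
Medians (points) and middle 50% of genes (bars) of the differences between aged male libraries for genes risen (206) or fallen (333) in young cKO females, with the number of libraries in brackets and black ticks at the median of all measured genes. Risen genes had medians of 0.40 and 0.39 in the differences that include Gh-high libraries labelled cKO, and of 0.02 and -0.07 in the others.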

How the data were processed

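Poly(A) RNA from mouse epidermis was sequenced after a column extraction with a strand-keeping kit, per the labels' protocols. The submitters' processing notes name STAR, DESeq2, GRCm38 and mm10 without roles. The counting program is not given in the sources used here, nor whether it used strand. The authors deposited normalized signal values per gene and library, in 4 separately scaled tables, and comparison tables that hold, per the file headers, mean signal, log2 fold changes and their SE, a test score, p-values and adjusted p-values. The signal values are not whole counts. In aged males 65.8% to 86.8% of low values lay within 0.1 of a whole multiple of the library's step, up to 20 steps, so a count test was not run. Reads were approximated as the sum divided by the step. Counting intervals are not given, and the spread between libraries is the error used. Nothing in the labels says that libraries came from separate animals, so p-values measure the spread between these samples.

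The design assumed counts or normalized values and the second was used. Tests within a table were made with limma 3.58.1 (R 4.3.3), on log2(value + 1) and with its variance trend. A gene was tested where it reached 10 in a number of libraries equal to the size of the smaller group, and p-values were adjusted by Benjamini-Hochberg, with 0.05 as threshold. Log2 changes understate those of low genes. The Gh division was described and not tested, because Gh chose the sets. Kdm6a was also compared with exact permutation tests. The limma script was tested on simulated data. Of 24972 rows, 26 names turned into dates were left out, and 24464 of 24946 symbols (98.1%) matched GENCODE vM21 for coordinates. Figures were drawn with matplotlib 3.10.9.

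The rule for named genes takes Gh, Kdm6a and genes that check sex. It adds the 12 largest set-apart differences in each direction with a mean of at least 50, without predicted genes, and up to 10 set-apart genes per direction called in another table. It adds up to 6 label calls and up to 4 members per list. The members and the 26 lists were chosen with earlier results of these data known. Neighbouring library names pair the aged male libraries in the data, not in the labels. Deviations from the group means correlated at 0.372, 0.340 and 0.729 in the pairs numbered 4, 5 and 6, each the highest for its library. The alternatives were another pseudocount, no filter, quantile normalization, a lower fold, another Gh threshold, Gh as a covariate, a replicate block and leaving out each library.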

Additional observations from a re-analysis of the deposited data

Results flagged for a closer look

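Among 42 groups of 4 or 5 libraries examined for 21 named genes, 5 had a library far from the others, where chance gives about 1 in 20. Young females alone have groups of that size. Akr1c19 was 317 in cKO 4, with the next library at 201, and 106 in control 1, with the next at 34.9. S100a8 was 24.8 in control 1 (next 8.68), Cfc1 was 11.0 in cKO 2 (next 1.46), and Kel was lowest in control 2 with 59.0 (next 69.6).

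In 3 genes every library labelled cKO differed from control in opposite directions in aged males and aged females, a difference that was not tested. The log2 changes by label were -6.81 in aged males and 4.35 in aged females for Snrpn, 7.09 and -7.17 for Snurf, and 0.42 and -0.34 for Cidea, a lipid droplet gene.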

How the results depend on the processing

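Genes set apart by Gh made up 1.19% (higher) and 1.93% (lower) of measured genes. These shares were 0.996% and 1.51% with a pseudocount of 5, 1.56% and 1.48% with quantile normalization, 1.46% and 2.78% without the filter (287 and 546 genes), 2.28% and 3.35% for a 1.5-fold difference (337 and 494 genes), and 1.01% to 2.86% and 1.72% to 3.70% without 1 library (147 to 418 and 250 to 542 genes). Without both libraries numbered 6, an alternative chosen after the hair and collagen transcripts had been seen, they were 0.792% and 1.63%. With a Gh threshold of 1000, which leaves control 5 against the other 5 libraries, 135 were higher and 323 lower, of which 8 and 24 were shared. Under that threshold 29 named differences changed sign, to -2.58 for Krt6b, -1.99 for S100a8, -1.52 for Sprr1b, -2.22 for BC100530, -1.06 for Sprr2d, -0.84 for Stfa1, -1.66 for Stfa3, -0.39 for Ehf, -0.57 for Ifit1, -0.24 for Oas1a, -0.52 for Rsad2, -0.32 for Mx2, -0.34 for Apol9b, -0.38 for Oas2, -1.47 for Lce3d, -0.57 for S100a9, -1.29 for Krt86 and -0.56 for Top2a, and to 0.40 for Car3, 0.88 for Scara5, 1.45 for Tgm7, 0.12 for Igfbp3, 0.66 for Mesp2, 0.69 for Gldc, 0.17 for Unc79, 1.67 for Cfc1, 0.80 for Kel, 0.68 for Cygb and 0.97 for Fbp2. Cyp2g1, Akr1c18, Krt2 and Gm1943 kept theirs. By label, 2 genes passed in 6 libraries and 0 to 1 without 1 library, and 0 among Gh-high libraries and 0 to 107 without 1. With the replicate block of neighbouring names, and with the Gh set as a covariate, 2 genes passed, and the block changed no call. Called set-apart genes other than Gh numbered, without 1 library, 13 to 18 and 9 to 18 in young females, 0 to 2 (higher) in young males, and 0 to 3 and 0 to 2 in aged females. In young males 2 higher genes passed with a pseudocount of 5, and in aged females 3 higher genes passed with quantile normalization and 0 and 0 passed without the filter. The log2 difference of Kdm6a by label was -1.01 to -0.42 in 6 libraries and -1.27 to -0.96 in the Gh-high ones. With 2 libraries the Gh-low set limits every count.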
